A study of Mus musculus with 4 samples.

Results

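The genes described are 8 mouse genes whose proteins read DNA methylation or belong to base excision: Mbd1, Mbd2, Mbd3, Zbtb4 and Zbtb38 on the reader side, and Mbd4, Tdg and Gadd45a on the excision side. They were taken by symbol from both expression files, where each had 1 row, and make up 8 of 22492 gene symbols. The rule that takes them uses symbols alone, and the list was drawn up with earlier results of these data known. The cells were mouse embryonic stem cells of the line E14Tg2a, either unmodified (WT) or mutated by CRISPR in Tet1, Tet2 and Tet3 together (TetTKO). Each genotype had 1 RNA-seq library and 1 whole-genome bisulfite library (WGBS), so there were 4 libraries and no replicate. TetTKO came from colonies picked after a transient transfection and puromycin selection in 2i medium with inhibitors of MEK and GSK3, and the labels do not say how many colonies the libraries hold or whether WT passed through the same selection. Both genotypes were then kept for at least 17 days in medium with 15% serum and 1000 units/ml LIF.

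Methylated CpGs are bound by proteins with a methyl-CpG-binding domain, such as MBD1 and MBD2, and by a family of zinc finger proteins that includes ZBTB4 and ZBTB38. MBD2 and MBD3 are alternative subunits of the NuRD complex, which joins a nucleosome remodeller to histone deacetylases, and mammalian MBD3 has lost most of the preference for methylated DNA. TET enzymes oxidise 5-methylcytosine stepwise. The glycosylase TDG excises the most oxidised forms, and base excision repair then puts unmodified cytosine in place. MBD4 is a glycosylase that removes thymine or uracil mispaired with guanine at CpGs. GADD45A is a stress response protein that has been reported to take part in active demethylation.

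Promoter sequences hold the CpGs on which the methylation values at the gene starts rest. RefSeq sequences (GRCm38.p6, from 250 bases before to 50 bases after a start) were given for 6 of the 8 members, with 3 different starts for Zbtb38. They were placed on the mm9 positions of the methylation files by the spacing of their CpGs, and 7 of 8 sequences, from 5 members, were placed. The match covers the CpGs, so the other letters are those of GRCm38. The placement put the start of Tdg at the lower-coordinate end of its interval, on the plus strand. It put those of Mbd3, Mbd4, Gadd45a and the outer start of Zbtb38 at or near the upper-coordinate end, on the minus strand. The bases before 5 of these starts are shown, with every CpG in capitals. The methylation values rest on the full sequences. These also take in the 50 bases after each start and, for Mbd4, bases within Ift122, which are not shown. The first 3 and the inner Zbtb38 sequence are starts without methylation, and the outer Zbtb38 sequence is a methylated one.
Tdg, chr10:82092333-82092582, plus strand: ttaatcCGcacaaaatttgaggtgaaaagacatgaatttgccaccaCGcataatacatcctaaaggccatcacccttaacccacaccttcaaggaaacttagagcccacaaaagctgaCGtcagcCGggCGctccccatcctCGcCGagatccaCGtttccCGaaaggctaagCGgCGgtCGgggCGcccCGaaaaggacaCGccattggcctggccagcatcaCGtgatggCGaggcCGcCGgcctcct
Mbd3, chr10:79862277-79862526, minus strand: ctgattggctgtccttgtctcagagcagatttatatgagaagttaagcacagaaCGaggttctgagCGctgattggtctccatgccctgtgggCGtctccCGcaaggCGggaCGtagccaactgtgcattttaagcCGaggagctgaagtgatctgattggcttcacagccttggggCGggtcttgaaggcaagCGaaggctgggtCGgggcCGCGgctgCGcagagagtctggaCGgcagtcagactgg
Mbd4, chr6:115803360-115803545, minus strand, up to the neighbouring gene Ift122: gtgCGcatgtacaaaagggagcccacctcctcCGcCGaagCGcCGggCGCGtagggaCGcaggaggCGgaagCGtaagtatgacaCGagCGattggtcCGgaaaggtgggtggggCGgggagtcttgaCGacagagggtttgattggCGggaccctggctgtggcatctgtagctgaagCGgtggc
Zbtb38 outer start, chr9:96632095-96632344, minus strand: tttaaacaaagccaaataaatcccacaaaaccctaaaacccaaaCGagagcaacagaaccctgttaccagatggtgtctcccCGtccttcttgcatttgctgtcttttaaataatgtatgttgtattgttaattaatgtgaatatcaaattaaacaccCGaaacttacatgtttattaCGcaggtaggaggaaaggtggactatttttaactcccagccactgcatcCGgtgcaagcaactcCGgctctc
Zbtb38 inner start, chr9:96620270-96620519, minus strand: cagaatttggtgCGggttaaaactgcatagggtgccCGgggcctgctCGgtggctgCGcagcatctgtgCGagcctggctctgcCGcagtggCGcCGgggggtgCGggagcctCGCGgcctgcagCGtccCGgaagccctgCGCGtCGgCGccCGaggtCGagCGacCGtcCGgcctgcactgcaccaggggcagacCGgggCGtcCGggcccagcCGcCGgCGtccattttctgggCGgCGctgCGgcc

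The sequences differed in CpG density. The median promoter of the RefSeq table held 7 CpGs in 300 bases, over 32851 promoters. The Tdg promoter held 26 CpGs, more than 83.1% of all promoters, that of Mbd4 held 25, that of Mbd3 22 and that of Gadd45a 14. The outer Zbtb38 promoter held 8 CpGs, more than 51.4% of promoters, and the inner Zbtb38 promoter 41, more than 96.5%. Of 3 motifs searched on both strands, the palindromic core of the NRF1 site (in 0.971% of all promoters) and the ETS core CCGGAAGT (in 3.89%) were in 0 of the 8 member sequences. The motif TCCTGCNA, bound by Kaiso-type zinc fingers, was in 4.96% of promoters and in 1 of the 8, that of Mbd3.

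RNA of the readers was high for Mbd3, low for Mbd1, Mbd2 and Zbtb38 and nearly absent for Zbtb4. Values are FPKM, fragments scaled to transcript length and to the mapped reads of the library, and differences are log2((TetTKO + 1)/(WT + 1)). Mbd3 was the most abundant member in WT, with 41.5 FPKM, against 31.0 FPKM in TetTKO (log2 difference -0.41). Mbd2, which recruits the other form of NuRD to methylated DNA, stood at 4.93 FPKM in WT and 6.09 in TetTKO (0.26). Mbd1, a repressor that binds methylated CpGs and carries CXXC zinc fingers, had 3.41 and 4.50 FPKM (0.32). The 2 NuRD-associated readers thus stood on opposite sides of 0, with the Mbd3 value lower and the Mbd2 value higher in TetTKO.

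The zinc finger readers were low. Zbtb38 had 3.75 FPKM in WT and 2.43 in TetTKO (log2 difference -0.47). Zbtb4 had 0.05 and 0.11 FPKM, under the 1 FPKM needed in either library to be counted, so no fold is given for it. Differences as low as that of Zbtb38 or lower were found in 8.30% of the 10984 genes counted, and as low as that of Mbd3 or lower in 10.7%. Differences at or above that of Mbd1 were found in 16% and at or above that of Mbd2 in 20.2%. An unreplicated difference of this size gives no measure of its own error.

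On the excision side, Mbd4 had 10.04 FPKM in WT and 5.82 in TetTKO, the largest difference of the 8 genes (log2 difference -0.69). Gadd45a stood at 36.6 FPKM in WT and at 44.8 in TetTKO (0.29), where it was the most abundant member. Both lie on chromosome 6, where WGBS coverage in WT was 1.34 times that of the median autosome and in TetTKO 0.982 times. Among genes of chromosome 6 that reached 5 FPKM in WT and in TetTKO, 310 in number, the median log2 difference was -0.52, and 91.0% lay below 0. Relative to that median, the difference of Mbd4 was -0.18 and that of Gadd45a 0.80. Of the same 310 genes, 25.2% were as low as Mbd4 or lower, and 4.84% were as high as Gadd45a or higher. The part of the chromosome 6 coverage in these RNA values was not tested.

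The row named Tdg had 3.22 FPKM in WT and 2.64 in TetTKO (log2 difference -0.21). It cannot be read alone, because the row Gm9855, a name that RefSeq lists for a Tdg pseudogene (Tdg-ps2), covers 20436 of its 20657 bases in the files. Gm9855 had 25.04 FPKM in WT and 24.08 in TetTKO. The sum of the Tdg and Gm9855 rows was 28.26 and 26.72 FPKM (-0.08), of which the Tdg row held 11.4% and 9.88%. How the reads of the Tdg locus were divided between the rows is not given in the sources used here, so the level and the difference of Tdg are uncertain. Other overlaps are smaller: Gadd45a shares 809 bases with E230016M11Rik (6.07 and 7.86 FPKM), and Zbtb38 overlaps E030011O05Rik at its upper end (0.70 and 0.17 FPKM). Mbd4 lies 186 bases from Ift122, also on chromosome 6, which had 3.51 and 2.05 FPKM.

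Of the 7 members counted, 3 were higher in TetTKO, against 48.9% of all counted genes, 4 were lower, against 51.0%, and 0 differed 2-fold. A 2-fold difference either way was found in 2.61% of the 10984 counted genes (1.77% higher and 0.847% lower), so a count of 0 among 7 lies near that background. The median difference of the 7 was -0.21, against -0.0077 over all counted genes. For genes of at least 5 FPKM in both libraries, the central 90% of differences ran from -0.58 to 0.47, over 6742 genes. Mbd4 alone lay outside this range as measured and Gadd45a alone once its chromosome median was taken off. The range itself was left without that correction, and 5 of the 8 members were under 5 FPKM in at least 1 library, so the comparison is rough. In WT the order from high to low was Mbd3, Gadd45a, Mbd4, Mbd2, Zbtb38, Mbd1, Tdg and Zbtb4. With 1 library per genotype it cannot be said which neighbours in this order differ beyond their spread, and less RNA per cell and fewer cells with that RNA cannot be told apart.

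**Figure D1:**
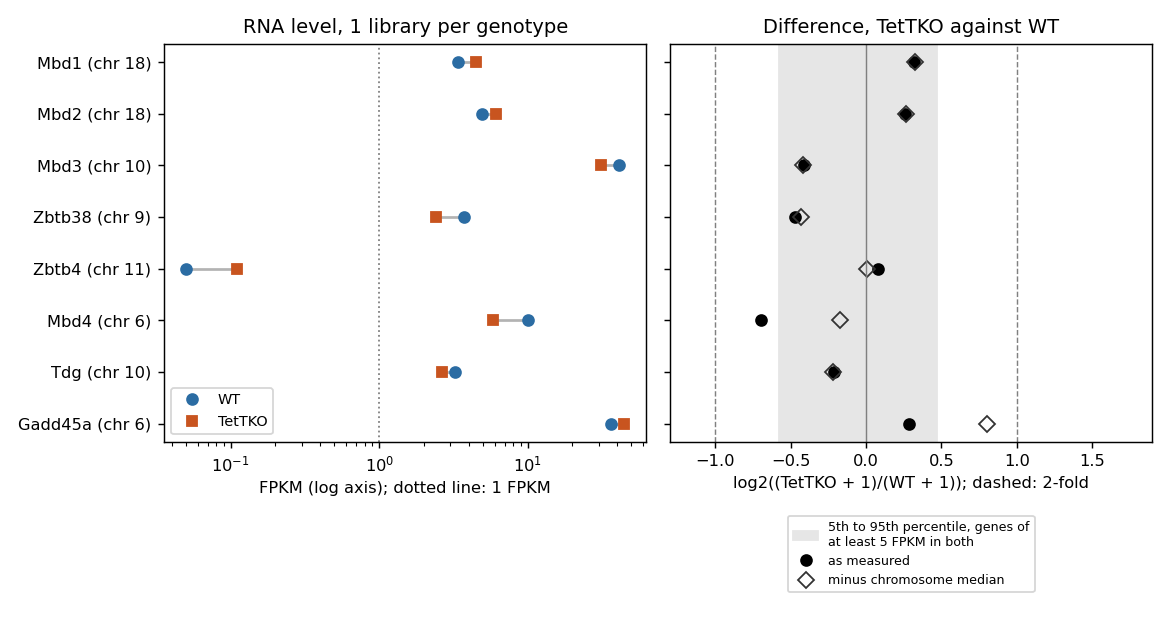
RNA of the 8 genes in 1 library per genotype: the left panel shows FPKM on a log axis (circles WT, squares TetTKO) and the right panel the log2 difference with a pseudocount of 1 FPKM (filled) and the same minus the median of the gene's chromosome (open). Mbd3 and Gadd45a stand highest, Zbtb4 lies under 1 FPKM, no value passes 2-fold, and the open symbols leave the filled ones mainly at Mbd4 and Gadd45a on chromosome 6.

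As a check of the labels, Tet1 had 15.1 FPKM in WT and 4.36 in TetTKO, Tet2 14.9 and 4.13, and Tet3 0.32 and 0.27. All 10 stem cell markers examined were at 1 FPKM or more, with a summed level of 6239 FPKM in WT and 6166 in TetTKO. Dppa5a alone held 3211 and 3344 FPKM of these sums. Of the 10 markers, 4 were higher in TetTKO and 6 lower, against 51.0% of all counted genes lower. The largest difference was that of Esrrb, at 49.3 and 26.4 FPKM. The 10 fibroblast and feeder markers summed to 1.96 and 3.01 FPKM, with Lum at 0 in both libraries. Primitive endoderm markers summed to 80.8 FPKM in WT and 131.5 in TetTKO, with none of the 10 at 0. Of those counted, 8 of 8 were higher in TetTKO, against 48.9% of all counted genes. Dab2, Gata4, Gata6, Pdgfra and Sox17 reached 1 FPKM in TetTKO only, so for them the filter fixed that direction. Trophoblast markers summed to 43.9 and 75 FPKM, with Elf5 and Plac1 at 0 in WT. Of those counted, 6 of 6 were higher, but Eomes and Gcm1 likewise reached 1 FPKM in TetTKO only. The part of these cells in the RNA values of the readers and excision genes was not tested.

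The placed starts were almost free of methylation in both genotypes, with the outer Zbtb38 start as the exception. Methylation is the mean over CpGs of the percent of reads that were methylated, and bisulfite sequencing reads 5-methylcytosine and 5-hydroxymethylcytosine alike. At the full Tdg promoter sequence, of which the part before the start is shown above, 26 CpGs averaged 0.549% in WT (282 read calls). In TetTKO they averaged 0.385% (238 calls). The Mbd4 promoter averaged 0.2% over 25 CpGs in WT (435 calls) and 0% in TetTKO (203 calls, which allow up to 1.80% by the exact 95% binomial interval). The Mbd3 promoter was at 0% over 21 CpGs in WT (154 calls, up to 2.37%) and at 1.08% in TetTKO (195 calls). All 14 CpGs of the Gadd45a promoter were at 0% in both libraries, from 197 and 189 calls. These intervals cover counting error only and are too narrow, since a read counts at each CpG it covers. No difference between the genotypes was detectable at these starts at this depth.

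Zbtb38 carried methylated and unmethylated starts within 1 gene. The 8 CpGs of its outer start averaged 74.6% in WT (59 calls) and 73.8% in TetTKO (89 calls). The inner start lies 11825 bases inside the interval, and its 38 listed CpGs averaged 0.219% in WT (387 calls) and 0.202% in TetTKO (502 calls). A further start, 12230 bases inside, averaged 0.395% over 23 CpGs in WT and 1.03% in TetTKO. The contrast between outer and inner start was thus present in both libraries, and the summed FPKM of the row does not say which start was used. The inner start had 2 possible placements, of which 1 held at least 80% of the CpGs of the sequence, a criterion added after the first result was seen.

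**Figure D2:**
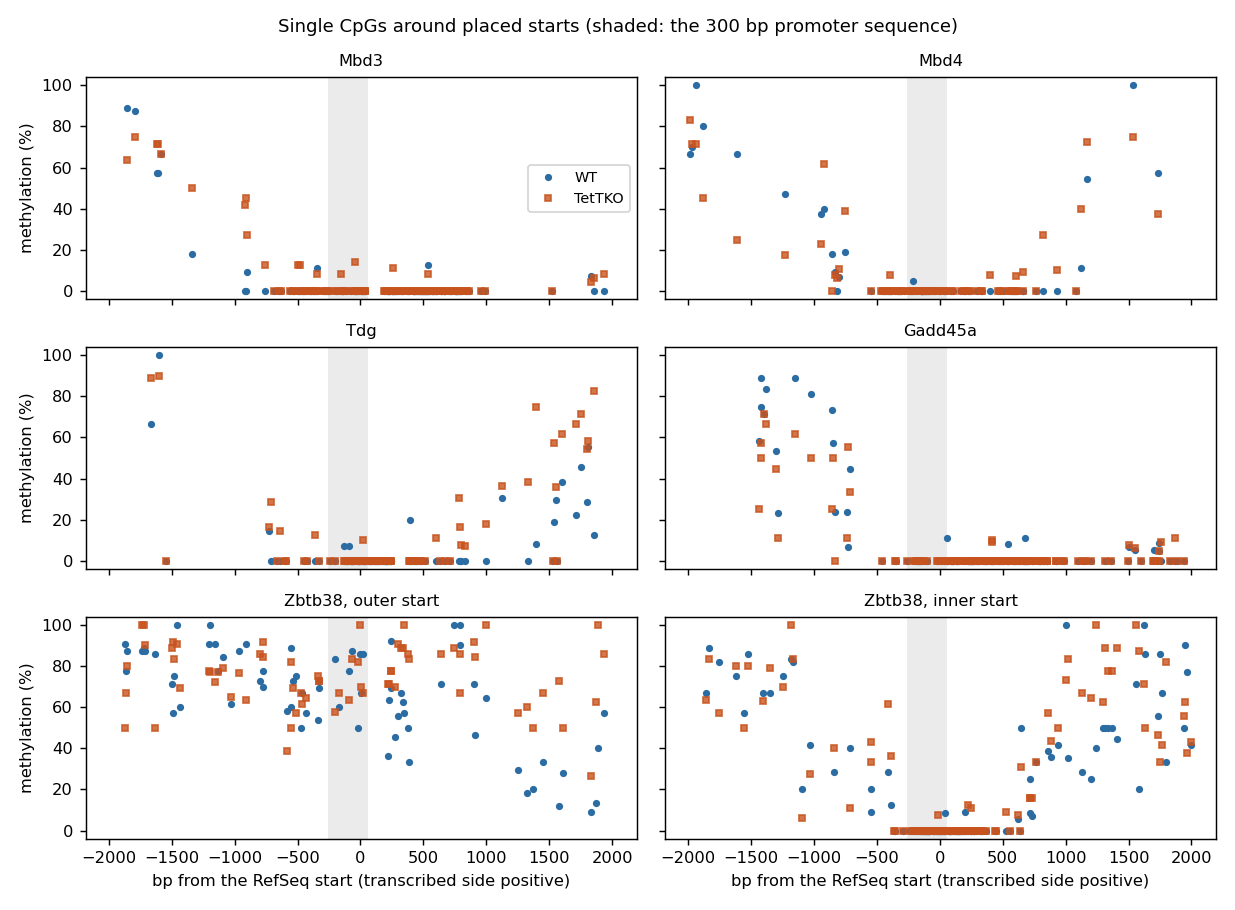
Methylation of each listed CpG (percent, y axis) against its distance in bases from 6 placed RefSeq starts (x axis, transcribed side positive), circles WT and squares TetTKO, with the promoter sequence shaded. CpGs in the shaded stretch are near 0% in both genotypes at Mbd3, Mbd4, Tdg, Gadd45a and the inner Zbtb38 start, and between 50% and 100% at the outer Zbtb38 start.

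Farther from the unmethylated ends the genes differed among themselves. For each gene end whose central 250 bases to either side were under 10% methylated in WT, the flanks from 500 to 2000 bases on both sides were averaged, a measure added after the first results were seen. It applied to 1 end each of 7 members and to 13234 ends in all. The flanks of Tdg averaged 14.7% in WT and 30.2% in TetTKO over 32 CpGs, with exact 95% intervals of the pooled calls from 12.1% to 20.6% and from 27.5% to 37.7%. A difference as high or higher was found at 3.12% of ends. The flanks of Zbtb4 averaged 25.3% in WT and 37.8% in TetTKO over 38 CpGs, with intervals from 18.6% to 28.1% and from 33.6% to 43.4%. Averaged over both sides, the flanks of Tdg and those of Zbtb4 were more than 10 points higher in TetTKO. Inside the interval, the Tdg flank averaged 12.6% in WT and 31.7% in TetTKO over 23 CpGs, and that of Zbtb4 20.4% and 34.4% over 35. Outside it, the Tdg flank averaged 20.1% and 26.5% over 9 CpGs, and that of Zbtb4 83.3% and 77.8% over 3. The central stretch of Tdg averaged 0.26% in WT and 0.18% in TetTKO over 55 CpGs. That of Zbtb4 was higher in TetTKO as well, at 0% and 5.13%, but over 6 CpGs only.

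Smaller differences were found at the other flanks. Those of Mbd2 averaged 26.1% in WT and 29.7% in TetTKO, and those of Mbd3 6.32% and 9.78%. Those of Mbd1 averaged 62.5% and 60.3%, over 18 CpGs that all lay inside the interval, and those of Gadd45a 12.5% and 9.05%. Those of Mbd4 averaged 23.7% and 22.4% over CpGs, but 20.1% and 23.5% with read calls pooled, so their direction depends on the averaging. In all, 4 of 7 were higher in TetTKO, against 72.7% of all ends, and 2 of 7 were at least 10 points higher, against 11.2% of all ends. The median difference was 3.46 points, against 2.60 over all ends, so the members' counts lie near the background. Without the chromosome 6 genes Mbd4 and Gadd45a the count was 4 of 5.

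Whole gene intervals differed little. Zbtb4 (chromosome 11, 69579414 to 69597528, mm9) averaged 51.9% in WT and 57.5% in TetTKO over 184 CpGs, the largest difference upward of the 8 (5.61 points). With CpGs covered at least 10 times only, that difference was 0.30 points, and those of Tdg and Zbtb38 were 10.8 and 7.60. Zbtb38 (chromosome 9, 96585842 to 96632094) averaged 54.6% and 59.96% over 703 CpGs. Mbd3 (chromosome 10, 79855286 to 79862224) averaged 13.0% and 16.8% over 171 CpGs, and Tdg (chromosome 10, 82092583 to 82113239) 45.9% and 47.3% over 204. These 4 of 8 intervals were higher in TetTKO, against 30.8% of all intervals.

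The other 4 intervals were lower. Mbd4 (chromosome 6, 115790715 to 115803359) averaged 54.3% in WT and 48.5% in TetTKO over 120 CpGs. Mbd2 (chromosome 18, 70727946 to 70785785) averaged 70.9% and 68.7% over 495 CpGs, and Mbd1 (chromosome 18, 74427942 to 74442338) 65.1% and 62.9% over 153. Gadd45a (chromosome 6, 66985090 to 66987401) was unmethylated over its whole length, at 0.557% and 0.532% over 109 CpGs. A 10-point difference was reached by 0 of 8 intervals and by 10.4% of 21404 gene intervals (2.85% higher and 7.5% lower). The median over members was 0.69 points, against -3.02 over all intervals, and the mean over all CpGs differed by -4.45 points. Relative to that shift, the differences of Mbd1 and Mbd2 become 2.32 and 2.16 points and that of Mbd4 is -1.40. That of Gadd45a becomes 4.42 by subtraction alone. An interval at 0.557% in WT cannot fall by as much as the mean did, so this value is not read as a gain.

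The ends of the genes, from 1000 bases outside to 500 bases inside the interval, were tabulated separately. The lower-coordinate end of Zbtb38, opposite to its outer start, averaged 56.7% in WT and 78.2% in TetTKO over 22 CpGs, a difference that 1.94% of ends reached. The upper end of Mbd1 averaged 38.6% and 52.8% over 14 CpGs. The upper end of Tdg, opposite to its start, averaged 58.2% and 70.6% over 10 CpGs. The upper end of Zbtb4, 9 bases from the neighbouring gene Chrnb1, averaged 22.0% and 32.2% over 22 CpGs. These 4 of 16 ends were at least 10 points higher in TetTKO, against 9.4% of 39271 ends, and 0 of 16 were at least 10 points lower, against 16.4%. Measured from 500 bases outside to 500 inside, the difference was 3.39 points at the upper end of Tdg and 1.08 at that of Zbtb4, and with read calls pooled it was 9.89 at the upper end of Mbd1. At the lower end of Zbtb38 it was 24.3 points from 500 bases outside to 500 inside and 8.51 from 2000 to 0 bases outside. With a coverage of at least 10, that end of Zbtb38 could not be measured. Any higher value in TetTKO was found at 12 of 16 ends, against 50.7% of all ends. Among the 8 ends of at least 20% in WT, 6 were higher, against 32.7% of such ends, and 4 were at least 10 points higher, against 10.5%. This class was set after the values were seen and from the same reads, so these shares are a description.

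Among the 8 ends under 20% in WT, 6 were higher in TetTKO, against 82.4% of such ends, and 0 were at least 10 points higher, against 7.42%. The lower end of Tdg, with its start, averaged 0.648% in WT and 1.09% in TetTKO over 75 CpGs. The upper end of Mbd3, with its start, averaged 0.327% and 2.02% over 100 CpGs, and that of Mbd4 2.08% and 2.52% over 65. The lower end of Mbd1 averaged 10.1% and 4.23% over 37 CpGs, the largest difference downward of the 16. The lower end of Mbd2 averaged 6.03% and 10.2% over 29 CpGs, and that of Zbtb4 4.51% and 5.24% over 17. Gadd45a had 9.84% and 16.7% over 10 CpGs at its lower end, and 3.28% and 2.66% over 73 CpGs at the upper end with its start.

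**Figure D3:**
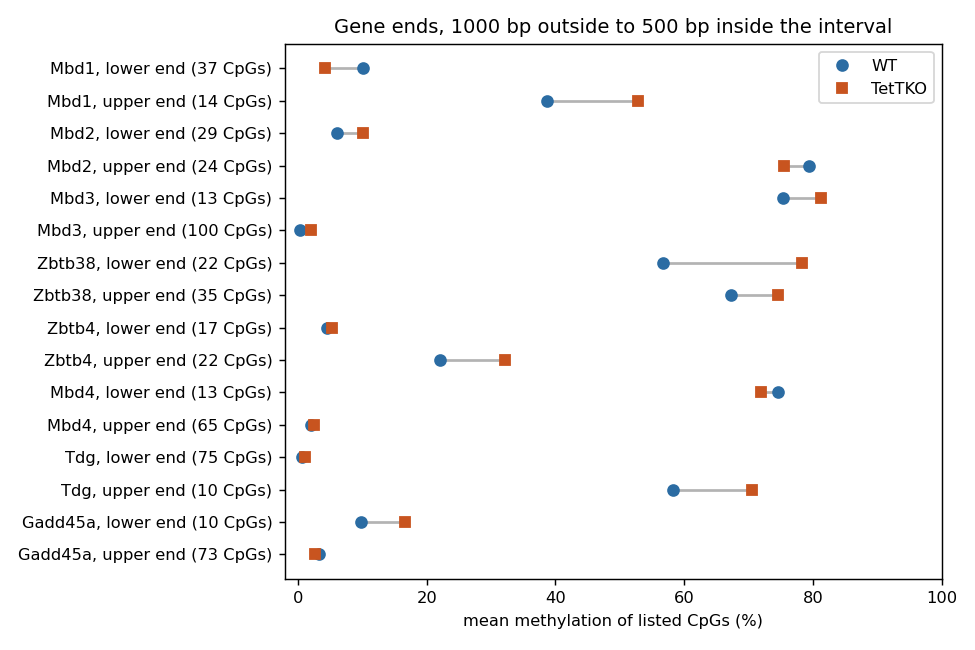
Mean methylation (percent) of both ends of each gene, from 1000 bases outside to 500 bases inside the interval, circles WT and squares TetTKO, with the number of CpGs beside each name and no error since each genotype has 1 library. The longest lines, of at least 10 points, lead to higher TetTKO values at the lower end of Zbtb38 and the upper ends of Mbd1, Tdg and Zbtb4.

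Along the genes, the 4 differences of at least 30 points lay in stretches that were less methylated in WT than those around them. A window picked for a rise in its own reads is more likely to read low in WT, so this pattern comes partly from the choice. Of 180 windows of 1 kb in or beside the members, 4 were at least 30 points higher in TetTKO and 0 as much lower. With read calls pooled over CpGs, 5 were that much higher and 1 that much lower. Of 1223855 windows of at least 5 CpGs, 0.67% were that much higher and 0.638% that much lower (1.31% either way). The largest of the 4 was inside Mbd2, at chromosome 18, 70733000 to 70733999. There 14 CpGs averaged 21.7% in WT (144 calls, interval of the pooled calls from 18.2% to 32.9%) and 71.5% in TetTKO (137 calls, from 63.2% to 78.9%). The window next to it, from 70734000, averaged 54.2% in WT and 74.6% in TetTKO, and another dip in Mbd2, from 70759000, averaged 19.4% and 47.6%. Mbd2 thus held separate dips of methylation in WT that were shallower in TetTKO. Of its 54 windows, 37 (68.5%) were lower in TetTKO, near the 72.1% of all windows. The largest difference downward in Mbd2, named after its value was seen, was from 70754000, where 5 CpGs averaged 87.5% in WT and 59.3% in TetTKO.

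Zbtb38 held the other 3 windows. From 96614000 to 96614999 on chromosome 9, 7 CpGs averaged 23.5% in WT and 61.0% in TetTKO (51 and 83 calls). From 96630000 to 96630999, on the transcribed side of the outer start, 11 CpGs averaged 27.6% and 62.5% (141 and 129 calls). From 96606000 to 96606999, 17 CpGs averaged 11.0% and 44.4% (184 and 199 calls), a window named after its value was seen. In each of the 3 the intervals of the pooled calls did not overlap between libraries. These windows were picked by their difference in the same reads, so the lack of overlap adds no support. Neighbouring windows were higher in TetTKO as well, such as 96627000 to 96627999 at 34.2% and 61.9%. In the gene as a whole 15 of 48 windows were at least 10 points higher and 4 as much lower, against 7.85% and 32.5% of all windows. The largest difference downward in Zbtb38, named after its value was seen, was from 96600000 to 96600999, where 6 CpGs averaged 90.1% in WT and 60.8% in TetTKO (52 and 75 calls). No exon annotation of this build was used, so their place relative to exons is not given.

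Tdg, Mbd3 and Zbtb4 had windows less than 30 points higher beside their unmethylated ends. In Tdg, the window from 82094000 to 82094999, on the transcribed side of the start, averaged 33.4% in WT and 53.7% in TetTKO. In Mbd3, the window from 79863000 to 79863999 averaged 26.0% and 48.3%. Farther inside Mbd3, beyond a more methylated window, the one from 79857000 averaged 16.4% and 31.8%. In Zbtb4, the window from 69580000 averaged 17.3% and 31.7%. Of 13 windows in or beside Mbd4, 0 were at least 10 points higher, against 7.85% of all windows. As much lower were 4 (30.8%), all in its methylated body, near the 32.5% of all windows. The window from 115802000, inside the gene beside its start, averaged 3.28% in WT and 8.67% in TetTKO. Beside Gadd45a, the window from 66988000 averaged 56.8% in WT and 40.8% in TetTKO. On the other side of the Gadd45a interval, the window from 66984000 averaged 19.7% and 31.2%.

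**Figure D4:**
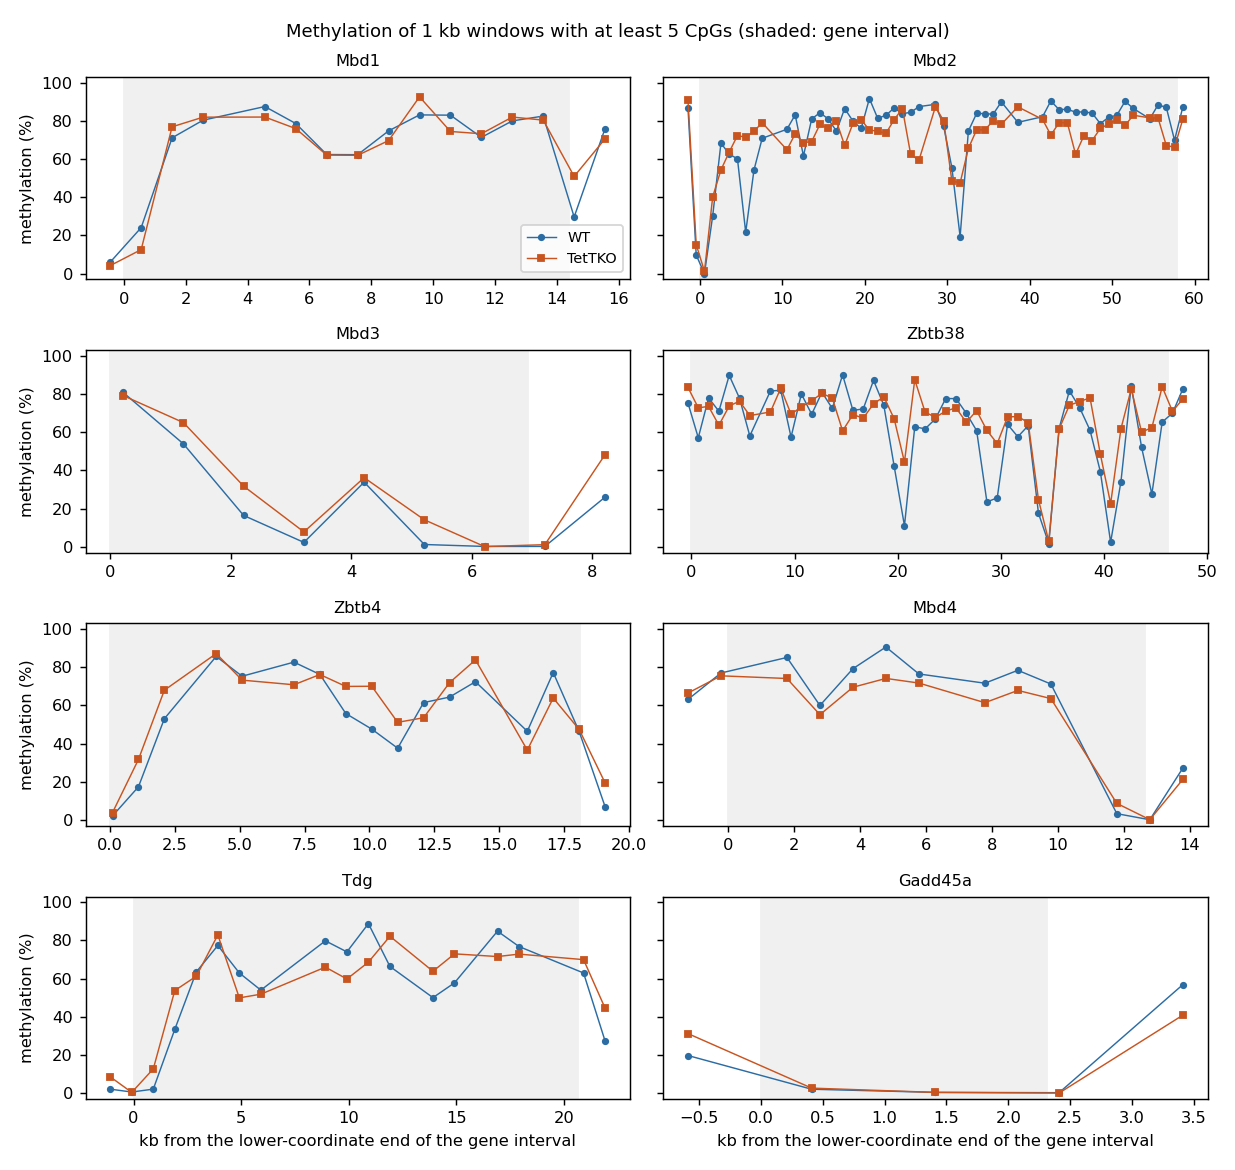
Methylation (percent) of 1 kb windows with at least 5 CpGs along each gene, against distance in kilobases from the lower-coordinate end of the interval (shaded), circles WT and squares TetTKO. Both lines run together at the minima near the starts, and the WT line dips below the TetTKO line inside Mbd2 and Zbtb38, as in the Mbd2 window at 21.7% and 71.5%.

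Windows were also grouped by their WT level, a grouping added after the first results were seen. The class was set from every other CpG and the values are those of the CpGs between them. Both sets of CpGs share reads and the single WT library, so low windows can appear higher in TetTKO through sampling alone, and the values are a description. In 24 member windows of 10 to 50% methylation in WT, methylation averaged 28.8% in WT and 46.3% in TetTKO, and 21 of 24 (87.5%) were higher, against 71.2% of 95468 windows of that class. The mean difference was 17.6 points, against 8.52 over all windows of the class, which started from a higher WT mean of 41.7%. In 19 windows under 10%, the means were 2.19% and 8.55%, and 13 of 19 were higher, against 78.1% of that class. In 81 windows of 50 to 80%, they were 68.8% and 70.05%, and 42 of 81 were lower, against 65.6% of all such windows, which differed by -4.50 points on average. In 56 windows over 80%, they were 81.3% and 75.3%, and 40 of 56 were lower, against 79.1% of all such windows. Windows of 1 gene share their locus, and 48 of the 180 are from Zbtb38 and 54 from Mbd2.

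Genes of the same pathways differed little in RNA. Of 74 genes in 7 lists, 68 reached 1 FPKM, 2 were at least 2-fold higher in TetTKO, against 1.77% of all counted genes, and 1 was at least 2-fold lower, against 0.847%. The median difference over the 68 was 0.01. Among 14 NuRD subunits, none passed 2-fold. Rbbp7, a histone-binding subunit, stood at 251.9 FPKM in WT and at 250.5 in TetTKO, and Mta3, a metastasis-associated family subunit, had 24.8 and 39.3. Among 8 counted of 12 other methyl-CpG readers and MBD-domain proteins, none passed 2-fold and the median was 0.16. Zfp57, which binds methylated DNA at imprinted regions, had 73.2 and 63.6 FPKM, and Baz2b, a bromodomain protein with an MBD-like domain, 1.29 and 2.03.

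Among 9 other DNA glycosylases, 6 were lower in TetTKO, against 51.0% of all counted genes, and 1 was at least 2-fold lower, against 0.847%. That was Ogg1, which removes oxidised guanine, with 14.4 FPKM in WT and 6.47 in TetTKO. It lies on chromosome 6, and relative to the median of that chromosome it no longer passed 2-fold, which leaves Apobec2 and Gadd45g. Ung, which removes uracil, had 46.6 and 37.7 FPKM. Among 14 genes of the later steps of base excision repair, none passed 2-fold and the median was -0.04. Pcna, the sliding clamp of DNA replication and repair, had 568 and 468 FPKM, and Lig3, a DNA ligase, 12.2 and 17.1.

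The Gadd45 family and its partners held 9 counted genes, with a median of 0.15. Gadd45g, a paralogue of Gadd45a on chromosome 13, had 4.72 FPKM in WT and 11.1 in TetTKO, at least 2-fold higher. Gadd45gip1, which encodes a mitochondrial ribosome-associated protein, had 36.6 and 28.3. Of 3 counted cytidine deaminases, Apobec2 had 2.92 and 8.68 FPKM, the other gene at least 2-fold higher, and Apobec3 had 32.5 and 25.2. Among 11 counted corepressor partners, none passed 2-fold. Cbx3, a heterochromatin protein on chromosome 6, had 380 and 228 FPKM.

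**Figure D5:**
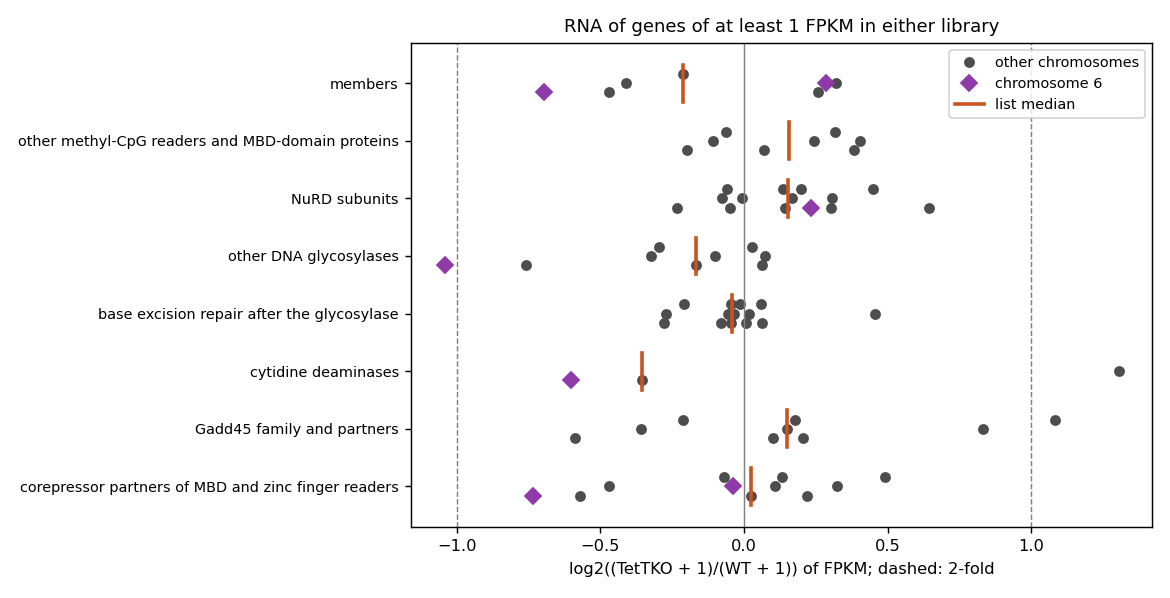
Log2 differences in RNA (x axis, pseudocount of 1 FPKM) of the members and of 7 pathway lists, 1 point per gene of at least 1 FPKM in either library, diamonds for chromosome 6 and bars for the list medians. Only Apobec2 and Gadd45g lie past 2-fold on the higher side and Ogg1, on chromosome 6, on the lower side.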

How the data were processed

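Per the labels' protocols, directional RNA libraries without ribosomal RNA were read as single ends of 50 bp and bisulfite libraries as pairs of 110 bp. The submitters' processing notes name TopHat2 2.0.2, Cufflinks 2.0.2, Bismark 0.7.9 and mm9. The sources used here give neither the gene models nor whether strand was used. The authors deposited FPKM per gene, with no depth, so the RNA depth is unknown. They deposited, per CpG, the methylated fraction beside read counts (methylated, total), for 14323377 CpGs covered at least 5 times in both libraries. On autosomes and X, read calls numbered 132794183 (WT) and 150132176 (TetTKO), with a median coverage of 8 and 10.

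Rows of a symbol were summed, the pseudocount was 1 FPKM, and genes needed 1 FPKM in either library. Methylation was averaged over CpGs of regions with at least 5 CpGs. Size rules of 2-fold, 10 points (intervals and ends) and 30 points (1 kb windows) replaced tests, since each group had 1 library and no test between genotypes is possible. The genes named are all 8 members, pathway genes past 2-fold, the most abundant and most different gene of each list, and at most 2 windows per gene and direction past 30 points. Other windows and ends were named after their values were seen. The members and lists were chosen with earlier results of these data known. Scripts (Python 3.11.15, pandas 2.3.3, scipy 1.17.1) were tested on simulated data. Other settings for the pseudocount, filters, coverage, region limits and chromosome 6 were tried.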

Additional observations from a re-analysis of the deposited data

How the results depend on the processing

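No member passed 2-fold in RNA under any of 6 other settings. The count of 3 pathway genes past 2-fold became 0 with a pseudocount of 5 FPKM and 1 (Ogg1) with at least 5 FPKM in both libraries. It was 2, without Ogg1, relative to the chromosome median, and 4, with Neil2, with a pseudocount of 0.1 FPKM. The count of 0 gene intervals past 10 points became 1 with a coverage of at least 10 (Tdg, 10.8 points) and 1 relative to the mean over all CpGs (Zbtb4, 10.06 points). The count of 4 ends became 2 of 10 measurable ends with a coverage of at least 10 (the upper end of Zbtb4 higher and the lower end of Mbd1 lower, at -15.3 points), 7 relative to the mean over all CpGs, 1 with a size rule of 20 points (the lower end of Zbtb38) and 1 from 2000 to 0 bases outside (the upper end of Tdg). The count of 4 windows became 21 at 20 points (15 higher, 6 lower) and was 3 to 6 under the other settings, with 5 higher and 1 lower for pooled read calls. From 500 bases outside to 500 inside, 3 ends passed 10 points: the lower end of Zbtb38 and the upper ends of Mbd1 and Zbtb38 (12.4 points at the last). Among single values, 5 of 16 ends changed sign when measured from 2000 to 0 bases outside. From 500 bases outside to 500 inside, 2 of 16 did, and with a coverage of at least 10, 1 of 10. Relative to the mean over all CpGs, 3 of 8 intervals and 3 of 16 ends changed sign. The interval and the upper end of Gadd45a are among these. Both were too little methylated in WT to fall by as much as that mean, so their change of sign is not informative. With read calls pooled, 1 interval changed sign, that of Gadd45a near 0. The cause was not tested where the setting does not give it. No paired analysis was possible because each genotype had 1 library per assay. The limits of these data are the single library per group, the unknown RNA depth, a median coverage of 8 and 10 reads per CpG, and the shared row of Tdg and Gm9855.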
